A study of Mus musculus with 12 samples.

Results

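The subject of the account is a set of 8 inflammatory chemokine genes, Ccl2, Ccl7, Ccl11, Cxcl1, Cxcl9, Cxcl10, Cxcl16 and Ccl20, in stromal cells (SCs) of mouse lymph nodes (LNs). The genes were taken by symbol from a table of 10253 genes, and all 8 had a row in it. Of these, 7 reached at least 1 RPKM (a read density, normalised to exon length and library size) in at least 3 libraries and were tested among 9764 genes. Ccl20 stayed under 1 RPKM in all 12 libraries and was handled apart.

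Bulk RNA-seq was performed on FACS-sorted CD45-CD24-CD31-Pdpn+ cells, which excludes hematopoietic and CD31+ endothelial cells and keeps cells with podoplanin (gp38) on their surface. The cells came from gut-draining mesenteric LNs (mLN) or skin-draining peripheral LNs (pLN) of adult mice. Animals were raised germ-free (GF) or held under SPF (specific pathogen-free) conditions, with 3 libraries in each of the 4 groups. All mice were on the BALB/c background: the SPF animals were described as the CD90.1 BALB/c line, and the GF animals as BALB/c mice derived by cesarean section at a different site. The paper gives overlapping but unequal age ranges, with the SPF range starting and ending later than the GF range. It also states that mice were matched for age. Housing, line, colony and any remaining age difference therefore cannot be told apart. The mLN samples combined the nodes of the small intestine with those of colon and cecum, and the pLN samples combined inguinal and axillary nodes (the sample descriptions add popliteal nodes). The sources do not say which animals or pools of animals made up a replicate, so that p-values here measure the spread between these libraries, which may be partly technical.

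Chemokines are small secreted proteins that guide leukocytes through G protein-coupled receptors. The homeostatic members, such as CCL19, CCL21 and CXCL13, position lymphocytes within the resting LN, whereas inflammatory chemokines are induced by NF-kB and interferon signaling and recruit effector cells. CCL2 and CCL7 attract monocytes through CCR2, CCL11 attracts eosinophils through CCR3, CXCL1 attracts neutrophils through CXCR2, CXCL9 and CXCL10 attract activated T cells through CXCR3, CXCL16 is a membrane-anchored ligand of CXCR6, and CCL20 is the ligand of CCR6. Fibroblastic reticular cells (FRCs) of the LN are a known source of several of them.

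In the GRCm38 assembly (GENCODE M21 annotation) the genes fall into a few clusters, and all are annotated as protein-coding. On chromosome 11, Ccl2 (82035571 to 82037453), Ccl7 (82045712 to 82047525) and Ccl11 (82057823 to 82062955) follow each other on the plus strand, with 8.26 kb between Ccl2 and Ccl7 and 10.3 kb between Ccl7 and Ccl11. On chromosome 5, Cxcl9 (92321347 to 92328079) and Cxcl10 (92346638 to 92348889) lie on the minus strand 18.6 kb apart, and Cxcl1 (90891241 to 90893115) lies on the plus strand of the same chromosome. Cxcl16 is on the minus strand of chromosome 11 (70453983 to 70459984), far from the Ccl2 cluster, and Ccl20 is on the plus strand of chromosome 1 (83116766 to 83119167).

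The RefSeq promoter table (GRCm38.p6) matched only 4 of the 8 genes, Cxcl9, Cxcl10, Cxcl1 and Ccl20, and the 250 bases before each start are shown for these. Ccl2, Ccl7, Ccl11 and Cxcl16 had no entry. The genes shown include Cxcl9, with a strong location difference, and Cxcl1, with none called. Capitals mark every match to 5 motifs: the NF-kB consensus (by name, both strands), AP-1 (TGANTCA, both strands), GAS (TTCNNNGAA, both strands), the ISRE core (GAAANNGAA, both strands) and the TATA box (TATAAA, sense strand). Each line reads 5′ to 3′ on the strand of the gene.
Cxcl9, chr5:92328080-92328329, minus strand: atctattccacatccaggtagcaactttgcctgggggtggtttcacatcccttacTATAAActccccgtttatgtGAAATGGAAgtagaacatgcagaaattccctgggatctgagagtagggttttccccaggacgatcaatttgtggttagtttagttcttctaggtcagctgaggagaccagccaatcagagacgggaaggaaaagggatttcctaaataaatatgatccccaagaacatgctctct
Cxcl10, chr5:92348890-92349139, minus strand: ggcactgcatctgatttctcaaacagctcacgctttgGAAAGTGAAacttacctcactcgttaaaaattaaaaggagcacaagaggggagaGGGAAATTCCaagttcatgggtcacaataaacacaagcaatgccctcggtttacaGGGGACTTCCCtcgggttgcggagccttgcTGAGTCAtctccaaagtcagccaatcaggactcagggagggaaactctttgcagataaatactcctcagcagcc
Cxcl1, chr5:90890995-90891244, plus strand: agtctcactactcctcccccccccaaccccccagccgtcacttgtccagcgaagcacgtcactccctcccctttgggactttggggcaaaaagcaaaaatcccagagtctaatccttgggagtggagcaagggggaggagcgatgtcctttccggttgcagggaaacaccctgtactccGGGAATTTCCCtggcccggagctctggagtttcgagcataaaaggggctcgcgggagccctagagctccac
Ccl20, chr1:83116516-83116765, plus strand: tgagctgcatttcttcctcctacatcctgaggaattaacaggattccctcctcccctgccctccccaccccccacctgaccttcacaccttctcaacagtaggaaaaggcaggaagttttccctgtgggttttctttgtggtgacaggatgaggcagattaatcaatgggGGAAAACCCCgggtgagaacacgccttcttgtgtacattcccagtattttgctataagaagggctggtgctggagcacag

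The Cxcl10 window held the most matches: an ISRE core 213 to 205 bases before the start, an NF-kB match at 159 to 150, an overlapping group of NF-kB matches between 104 and 94, and an AP-1 match at 74 to 68. The Cxcl9 window held an ISRE core at 175 to 167 and a TATA box at 195 to 190, and its letters did not match the NF-kB consensus used. In the Cxcl1 window, NF-kB matches on both strands overlapped between 71 and 61, and in the Ccl20 window a match on the opposite strand stood at 80 to 71. The share of all 32851 promoter windows of this length with at least 1 match was 7.25% for NF-kB, 6.75% for AP-1, 7.02% for GAS, 7.13% for the ISRE core and 7.59% for the TATA box. A match is a description of letters and was not tested as a binding site.

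The libraries held 4.23 to 12.7 M reads over the genes of the table, as recovered from the steps of the RPKM values, with 9319 to 9588 genes at 1 RPKM or above, and the shallowest library, pLN GF replicate 3, stood apart from the next at 7.32 M. Without it the counts of members called were the same, with 5 lower in mLN in SPF and 5 in GF mice, and the Ccl20 difference described below was -0.583 RPKM (exact permutation p = 0.01). The sort was reflected in the markers: Pdpn was at a mean of 58.8 to 74.9 RPKM in the 4 groups and Pdgfra, a fibroblast receptor, at 129.7 to 205 RPKM, while 10 of 12 listed endothelial genes, Pecam1 (CD31) among them, had means under 1 RPKM in every group. The other two, Tek and Madcam1, were higher and are given with the cell markers at the end.

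All 7 tested chemokines were expressed in each library of both LN types, from 0.786 to 753 RPKM. Cxcl1 was the most abundant per length in each library, with a mean of 435 to 629 RPKM across the groups, followed by Ccl11 in the mLN libraries and by Ccl7 in the pLN libraries. Cxcl9 was the lowest in every library. Location separated the set: 5 of 7 tested members (Ccl2, Ccl7, Cxcl9, Cxcl10, Cxcl16) were lower in mLN than pLN under SPF housing, and the same 5 genes were lower under GF housing. Cxcl1 and Ccl11 differed by less than 2-fold, and no member was higher in mLN.

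Differences between groups are given as log2 differences on the log2(RPKM + 1) scale, which understates those of low genes such as Cxcl9, with standard errors (SE) from limma fitted on all 12 libraries. A gene was called at a Benjamini-Hochberg adjusted p below 0.05 over all 9764 genes together with a change of at least 2-fold. In all genes tested, 6.41% were called lower and 3.99% higher in mLN than pLN in SPF mice, and 6.87% lower and 4.57% higher in GF mice. The 5 of 7 members called lower therefore stand beside a background of 6.41% and 6.87%. The median log2 difference of the 7 members was -1.79 in SPF and -1.91 in GF mice, beside 0.09 and 0.00 over all genes. The members were chosen with earlier results of these data known, so these comparisons with all genes are not independent of that choice. None of the 7 members had an unadjusted p below 0.05 in the direction of higher expression in mLN in either housing group (limma, 0 of 7, beside 26.2% and 21.2% of all genes), and voom on the recovered reads also called 0. All 7 members would have passed the filter on the mLN libraries alone.

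**Figure D1:**
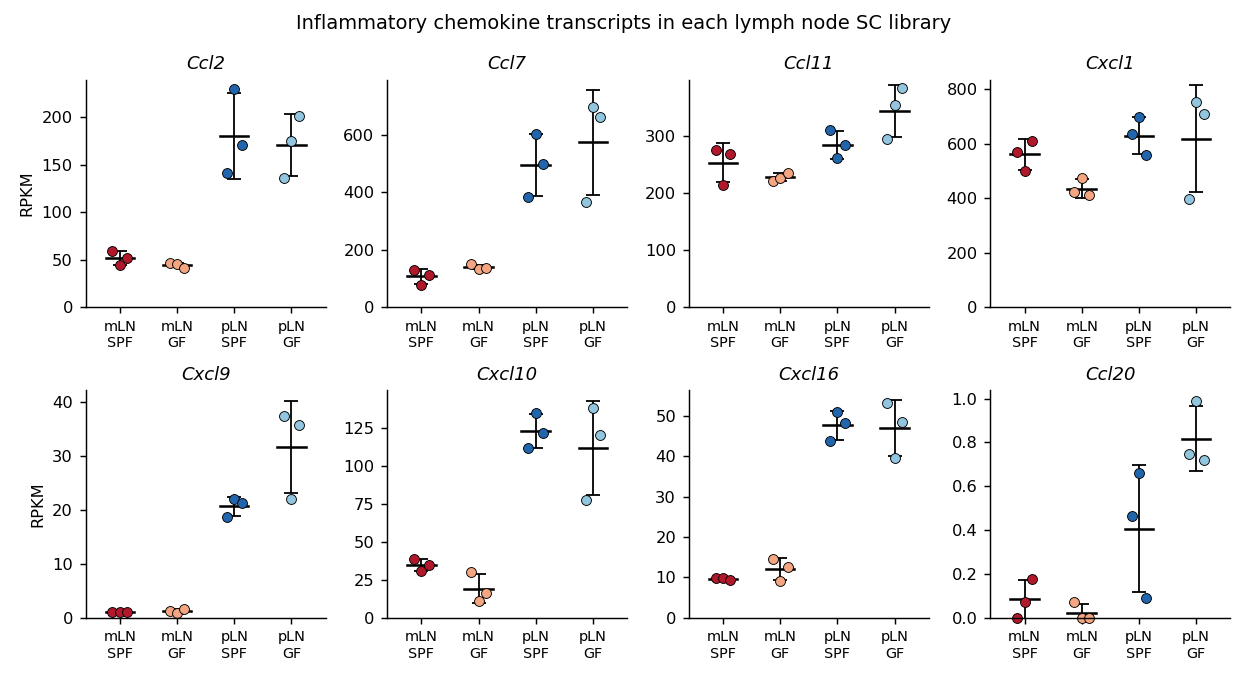
RPKM of each chemokine (vertical axes, linear, from 0) in the 3 libraries of each group. Points are libraries in the order of their replicate numbers, horizontal lines the mean and bars the SD (cut at 0 for Ccl20). For Ccl2, Ccl7, Cxcl9, Cxcl10 and Cxcl16 every pLN library lies above every mLN library, and for Cxcl1 the mLN and pLN libraries overlap.

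Among the monocyte-attracting chemokines, Ccl2 was measured at 59.5, 44.1 and 51.3 RPKM in the SPF mLN libraries and at 46.0, 45.2 and 41.4 RPKM in the GF mLN libraries. In pLN it reached 141, 230.1 and 170.2 RPKM in SPF and 136, 175 and 201 RPKM in GF mice. The lowest pLN library was thus more than 2-fold above the highest mLN library, and SPF and GF libraries overlapped at both sites. Ccl2 was lower in mLN by a log2 difference of -1.77 (SE 0.18, adjusted p = 1.03e-06, limma) in SPF and of -1.91 (SE 0.18, adjusted p = 4.11e-07) in GF mice, that is 3.40-fold and 3.76-fold. Ordered from the lowest level, GF and SPF mLN came first, with overlapping ranges, followed by GF and SPF pLN, which overlapped as well.

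Its chromosomal neighbor Ccl7 was at 130.5, 77.1 and 113 RPKM in SPF mLN and at 149, 134 and 136 RPKM in GF mLN. In pLN the values were 385, 602 and 498 RPKM in SPF and 364, 697 and 663 RPKM in GF mice. All pLN libraries exceeded all mLN libraries, with log2 differences of -2.21 (SE 0.24, adjusted p = 2.05e-06) in SPF and -1.98 (SE 0.24, adjusted p = 6.01e-06) in GF mice. Within mLN the SPF libraries were all below the GF libraries, but the difference of -0.41 did not pass the test (95% interval -0.92 to 0.09, adjusted p = 0.418). Relative to Ccl2 of the same library, Ccl7 stood at a ratio of 2.04 ± 0.258 (SD, n = 3) in SPF mLN and 3.16 ± 0.171 in GF mLN, without overlap, and at 2.75 ± 0.157 and 3.32 ± 0.653 in SPF and GF pLN, where the ranges overlapped.

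The eosinophil attractant Ccl11, which follows Ccl7 on the chromosome, did not share the size of this difference. It was at 276, 213 and 269 RPKM in SPF mLN and 309, 260.2 and 284 RPKM in SPF pLN, so that the ranges overlapped (log2 difference -0.18, 95% interval -0.46 to 0.10, adjusted p = 0.332). In GF mice it was at 220.5, 226 and 235 RPKM in mLN and at 294, 354 and 383 RPKM in pLN, without overlap. This difference of -0.59 (SE 0.13, adjusted p = 0.00235), or 1.5-fold, passed the p threshold but not the 2-fold minimum. The interaction between location and housing for Ccl11 was 0.41 (SE 0.19, unadjusted p = 0.0445, adjusted p = 0.496), so a different response in SPF and GF mice was not shown.

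The neutrophil attractant Cxcl1 was high at both sites. SPF mLN libraries held 569.8, 500.1 and 610.3 RPKM and SPF pLN libraries 634, 696 and 558 RPKM, with overlapping ranges (log2 difference -0.17, SE 0.19, 95% interval -0.58 to 0.24, adjusted p = 0.551). GF mLN libraries held 421, 474 and 410.2 RPKM and GF pLN libraries 395, 753 and 707 RPKM. Here pLN replicate 1 was as low as the mLN libraries and the other pair was well above them; the difference was -0.45 (SE 0.19, 95% interval -0.86 to -0.04, unadjusted p = 0.0326, adjusted p = 0.0817). Without pLN GF replicate 1 it was -0.75 (adjusted p = 0.000602), still under 2-fold, and without pLN GF replicate 3 it was -0.33 (adjusted p = 0.284). Over all alternatives the difference ran from -0.75 to -0.28, and the adjusted p (limma) from 0.000602 to 0.307.

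The interferon-inducible pair Cxcl9 and Cxcl10 was lower in mLN, each to a different extent. Cxcl9 was at 1.01, 0.992 and 1.08 RPKM in SPF mLN and 1.21, 0.786 and 1.70 RPKM in GF mLN, which corresponds to 28 to 55 recovered reads per library. In pLN it was at 18.7, 22.1 and 21.3 RPKM in SPF and 37.5, 21.9 and 35.7 RPKM in GF mice. The groups were far apart, with the largest location differences of the set: -3.42 (SE 0.18, adjusted p = 1.22e-09) in SPF and -3.86 (SE 0.18, adjusted p = 5.00e-10) in GF mice, equal to 10.7-fold and 14.5-fold on this scale.

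Cxcl10 was at 38.7, 30.5 and 35 RPKM in SPF mLN and at 29.9, 11.3 and 16.3 RPKM in GF mLN. In pLN it was at 112, 135 and 122 RPKM in SPF and 77.6, 138 and 119.8 RPKM in GF mice. Every mLN library was below every pLN library, and within mLN the SPF libraries were all above the GF libraries, the nearest being 30.5 and 29.9 RPKM. The location difference was -1.79 (SE 0.26, adjusted p = 5.32e-05) in SPF and -2.55 (SE 0.26, adjusted p = 1.26e-06) in GF mice, and the difference between these, 0.75 (SE 0.37, 95% interval -0.03 to 1.54, unadjusted p = 0.0597, adjusted p = 0.542), did not pass the test.

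Since both genes are reported per length, their ratio can be read within a library. Cxcl9 amounted to 2.61, 3.25 and 3.08% of the Cxcl10 level in SPF mLN and to 4.07, 6.94 and 10.4% in GF mLN. It amounted to 16.7, 16.4 and 17.5% in SPF pLN and to 48.3, 15.9 and 29.8% in GF pLN. The ratio was thus lower in every mLN than in every pLN library, nearly constant within SPF pLN, and most variable in GF pLN, where replicate 1 combined the lowest Cxcl10 with the highest Cxcl9.

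**Figure D2:**
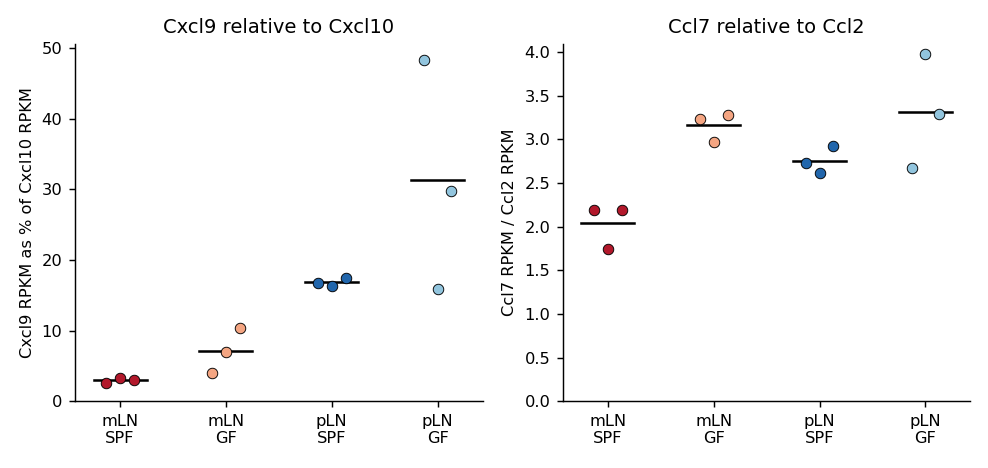
Ratios within each library: Cxcl9 as a percentage of Cxcl10 (left) and Ccl7 divided by Ccl2 (right), on linear axes from 0, for the 4 groups. Points are libraries and lines the mean of 3 libraries. The left ratio runs from 2.61 to 10.4% in mLN and from 15.9 to 48.3% in pLN, and the right ratio is 1.75 to 2.20 in SPF mLN against 2.96 to 3.28 in GF mLN.

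Cxcl16, which encodes the membrane-anchored chemokine, was at 9.90, 9.80 and 9.36 RPKM in SPF mLN and 14.6, 9.07 and 12.5 RPKM in GF mLN. In pLN it was at 43.8, 50.9 and 48.2 RPKM in SPF and 53.2, 39.6 and 48.4 RPKM in GF mice. The sites did not overlap and the housing groups did, at both sites. The location differences were -2.18 (SE 0.15, adjusted p = 1.69e-08) and -1.89 (SE 0.15, adjusted p = 8.49e-08) in SPF and GF mice, or 4.55-fold and 3.71-fold.

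Ccl20, under the filter, was counted in few reads. In mLN, 5 reads were recovered over the 6 libraries: 0, 1 and 3 in SPF mice (0, 0.0725 and 0.178 RPKM) and 1, 0 and 0 in GF mice (0.0710, 0 and 0 RPKM). In pLN there were 62 reads: 7, 10 and 2 in SPF mice (0.465, 0.662 and 0.0913 RPKM) and 15, 22 and 6 in GF mice (0.746, 0.987 and 0.718 RPKM). The sites overlapped in SPF mice through pLN replicate 3 and did not in GF mice. A count of 0 allows up to 3 reads, which is 0.214 RPKM in the SPF mLN library and 0.121 and 0.19 RPKM in the GF mLN libraries with none; such limits cover counting error only. The mean over mLN was 0.0537 RPKM and over pLN 0.612 RPKM, a difference of -0.558 RPKM (exact permutation test, two-sided, location labels exchanged within each housing group, 400 arrangements, p = 0.01, smallest possible 0.005). When labels were exchanged only within same-numbered pairs of libraries, the exact p was 0.0625.

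**Figure D3:**
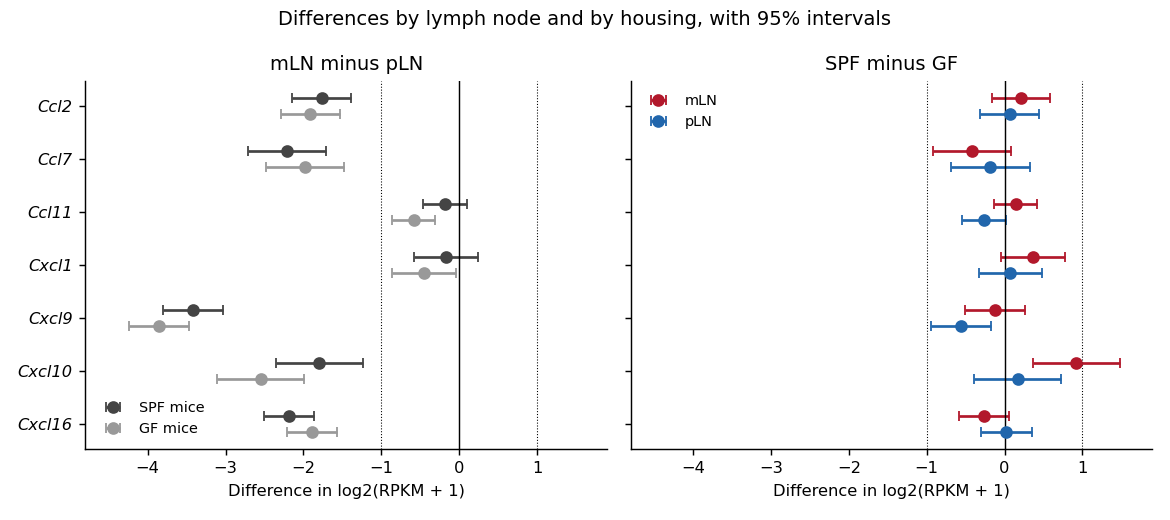
Log2 differences of the 7 tested chemokines, with 95% intervals from limma on 12 libraries: mLN minus pLN in SPF and GF mice (left), and SPF minus GF in mLN and pLN (right). Dotted lines mark a 2-fold change. Ccl2, Ccl7, Cxcl9, Cxcl10 and Cxcl16 lie below -1 for both location differences, and no housing difference was called.

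No member was called between the housing groups. In mLN, 0 of 7 members were called between SPF and GF mice, beside 0.748% of all genes, and in pLN 0 of 7, beside 1.05%. At an unadjusted p below 0.05, limma gave 1 of 7 members in mLN (Cxcl10) and 1 of 7 in pLN (Cxcl9), beside 16.3% and 26.0% of all genes, and voom on the recovered reads called 1 and 0. Cxcl10 was higher in SPF than GF mLN by 0.92 (SE 0.26, 95% interval 0.37 to 1.48, adjusted p = 0.0591), just short of the threshold in both p and fold. Without mLN GF replicate 1, the highest GF library, it was 1.28 (adjusted p = 0.00509), and with voom 1.03 (adjusted p = 0.0494), so this call depends on the processing, and over all alternatives the adjusted p ran from 0.00509 to 0.240. Cxcl9 in pLN was at -0.56 in SPF relative to GF (SE 0.18, 95% interval -0.95 to -0.17, adjusted p = 0.0612), with 1 of 3 GF libraries within the SPF range. For the other members the intervals of the housing difference stayed within -0.92 and 0.77 in mLN and within -0.68 and 0.73 in pLN, so changes of 2-fold on this scale lay outside them. Cxcl9 in mLN was near 1 RPKM, where the scale understates changes. Its interval there (-0.51 to 0.27) therefore did not exclude a 2-fold change in RPKM.

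For the interaction of location and housing 0 of 7 members were called, beside 0.236% of all genes; limma gave 1 member, Ccl11, at an unadjusted p below 0.05, beside 9.67% of all genes, and voom called 0. Without a test, the ranges of the 3 libraries did not overlap between mLN and pLN for 5 of 7 members in SPF mice and 6 of 7 in GF mice, where 43.5% and 50.2% of all genes did not overlap. Between SPF and GF mice the ranges did not overlap for 3 of 7 members in mLN (Ccl7, Cxcl1, Cxcl10) and 0 of 7 in pLN, beside 26.0% and 27.2% of all genes.

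Added up per library, the 8 genes reached 1017 ± 122 RPKM (SD, n = 3) in SPF mLN, 878 ± 23.5 in GF mLN, 1781 ± 189 in SPF pLN and 1899 ± 469 in GF pLN. The lowest pLN library, GF replicate 1 with 1358 RPKM, still exceeded the highest mLN library with 1089 RPKM. The makeup of this sum differed as well. Cxcl1 made up 55.2 ± 2.40% in SPF mLN and 49.5 ± 2.73% in GF mLN, against 35.4 ± 2.90% and 32.1 ± 2.79% in SPF and GF pLN. Ccl7 made up 10.4 ± 1.61% and 15.9 ± 0.998% in mLN and 27.6 ± 3.66% and 29.8 ± 2.69% in pLN. The neutrophil attractant thus took a larger share, and the monocyte attractant Ccl7 a smaller share, in every mLN than in every pLN library. In bulk libraries, fewer cells of a type and less RNA per cell cannot be told apart.

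**Figure D4:**
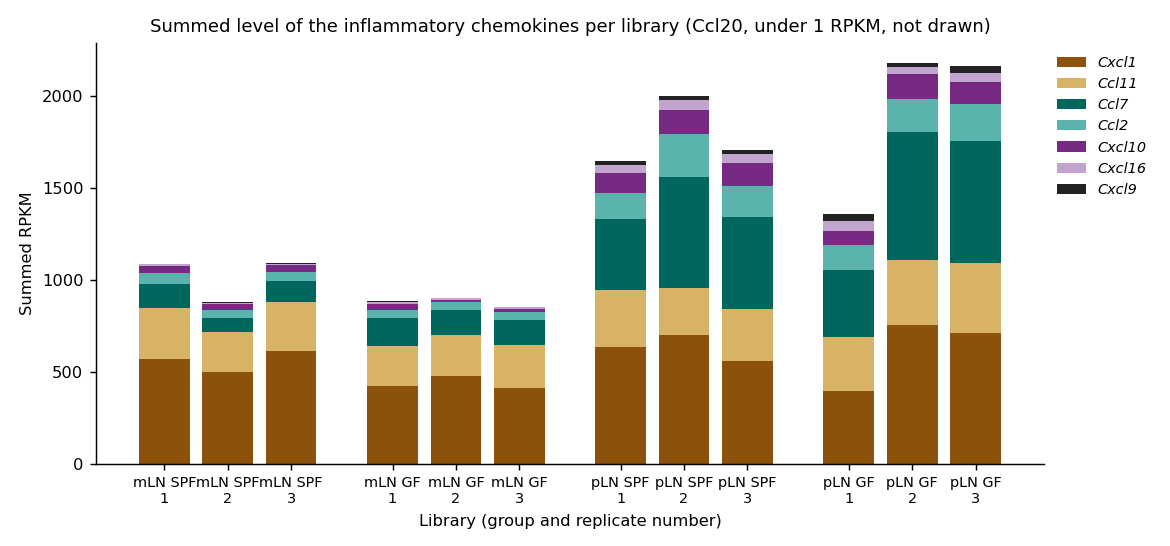
Summed RPKM (vertical axis, linear) of 7 chemokines in each of the 12 libraries, stacked by gene, with Ccl20 too low to draw. The sums run from 853 to 1089 RPKM in mLN and from 1358 to 2179 RPKM in pLN, and Cxcl1 is the largest part of every bar.

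Within groups, replicates did not vary alike for all members. In GF pLN, replicate 1 was the lowest of the 3 libraries for Ccl2, Ccl7, Ccl11, Cxcl1 and Cxcl10 and the highest for Cxcl9 and Cxcl16. After removal of the group means, the deviations of Ccl2 and Ccl7 had a Pearson r of 0.89 over the 12 libraries, those of Ccl7 and Cxcl1 0.79, and those of Cxcl9 and Cxcl16 0.77, whereas Cxcl1 with Cxcl9 and with Cxcl16 gave -0.54 and -0.52. Cxcl9 and Cxcl10 gave -0.09. These values describe 12 libraries that share depth and preparation. Leaving out pLN GF replicate 1 left the same 5 members called lower in mLN in both housing groups.

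Across all 12 libraries the closest member pair was Cxcl9 and Cxcl16 (Pearson r 0.99 on log2 values), followed by Ccl2 and Ccl7 (0.97). Among all tested genes, the 3 most similar to Cxcl9 were Il13ra2 (0.997), Srgn and Fam174b (each 0.996), and those most similar to Cxcl16 were Ephb6 (0.998), Slc1a3 and Synpo2 (each 0.997). For Ccl2 they were Tbx15, Pde4b and Cdo1 (each 0.98), and those given for Ccl7 were Prkg2 and Sema3b (each 0.97). Cxcl10 was closest to Khdrbs3, Icam1, which encodes an adhesion molecule, and Ldhb (each 0.97). Ccl11 was closest to Ifitm3 (0.97), 2410006H16Rik and Lst1 (each 0.95). Cxcl1 had no neighbor above 0.83, its closest being Zc3h12a, which encodes the RNase regnase-1, then Zfp703 (0.80) and Il6 (0.77). The 12 points share their site and their library with each other, and the highest of 9764 values is high by selection.

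Related gene lists were examined for context. Of 17 further inflammatory chemokines listed, 4 had a row in the table, and all 4 were called lower in mLN in both housing groups. Among them, Pf4 and Ccl9 passed the filter only with the pLN libraries, where they were higher. Pf4 stayed at or below 0.585 RPKM in mLN, and Ccl9 at or below 0.505 RPKM in SPF mLN. The direction of these genes was therefore partly set by the filter. The CX3CR1 ligand Cx3cl1 had means of 2.89 and 33.0 RPKM in SPF mLN and pLN (log2 difference -3.13, SE 0.20), Ccl9 of 0.430 and 8.73 RPKM (-2.76, SE 0.14), Pf4 of 0.423 and 3.21 RPKM (-1.57, SE 0.16) and the CXCR2 ligand Cxcl2 of 1.89 and 5.30 RPKM (-1.08, SE 0.21). Cxcl2 was no longer called in SPF mice without pLN SPF replicate 2 (-0.85). Its level was low beside that of Cxcl1, which shares its receptor.

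Of the homeostatic chemokines, 4 of 5 tested genes were called lower in mLN in both housing groups, with a median of -4.75 in SPF and -3.74 in GF mice. Ccl19, a CCR7 ligand, was at -5.90 (SE 0.27), the follicular chemokine Cxcl13 at -5.35 (SE 0.25), Ccl21a at -4.75 (SE 0.31) and Cxcl12 at -2.48 (SE 0.27) in SPF mice, and reads of Ccl21a may be split with its near-identical copies. Cxcl14 differed by 0.57 and was not called. In SPF mice the location differences of all 7 tested members were smaller than those of Ccl19, Cxcl13 and Ccl21a, and in GF mice that of Cxcl9 (-3.86) was larger than that of Ccl21a (-3.74). These differences between genes were not tested.

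Atypical chemokine receptors, most of which take up chemokines without signaling through G proteins, went the other way for most genes. In SPF mice 3 of 5 were called higher in mLN and in GF mice 4 of 5, with 1 of 5, Ccrl2, called lower in GF mice. Ackr4, which removes CCL19 and CCL21, had means of 7.88 and 0.538 RPKM in SPF mLN and pLN (2.52, SE 0.20), Ackr3, a scavenger of CXCL12, 267 and 62.0 RPKM (2.10, SE 0.22), and Ackr2, a scavenger of inflammatory CC chemokines such as CCL2, 33.1 and 12.6 RPKM (1.35, SE 0.28). Ackr2 in GF mice was 1.37 and fell short of 2-fold without pLN GF replicate 1 (0.98). Ackr4 passed the filter only through the mLN libraries (at most 0.725 RPKM in pLN), so its direction was partly set by the filter. Of 9 signaling receptor genes listed, 0 had a row in the table used here.

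Genes for chemokine processing and presentation on glycosaminoglycans were mixed, with 3 of 12 called higher and 2 of 12 lower in mLN in each housing group. Dpp4, a protease that trims the N terminus of CXCL9 and CXCL10, had means of 62.7 and 22.2 RPKM in SPF mLN and pLN (1.44, SE 0.25), and the heparan sulfate enzymes Ext1 (1.43, SE 0.11) and Hs3st1 (1.39, SE 0.23) were also higher in mLN. The proteoglycan Gpc1 was lower (-1.70, SE 0.17). Mmp9, with means of 0.434 and 2.65 RPKM in SPF mLN and pLN, passed the filter only with the pLN libraries. It stayed at or below 0.669 RPKM in SPF mLN, so its direction was partly set by the filter. Adam10, the sheddase of CXCL16, was at 20.5 and 18.3 RPKM and was not called (0.17).

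Of the NF-kB pathway genes, 9 of 22 were called lower in mLN in SPF mice and 8 of 22 in GF mice, and 0 were higher (median -0.67 and -0.66). At an unadjusted p below 0.05, 0 of 22 were higher in mLN in SPF and 1 of 22 in GF mice, beside 26.2% and 21.2% of all genes, and voom called 0 higher in both. The lower genes included the decoy receptor Il1r2 (-5.00, SE 0.29), the inhibitor Nfkbie (-2.74, SE 0.17), Birc3 (-2.02, SE 0.22) and the deubiquitinase gene Tnfaip3 (-1.72, SE 0.17). The subunit genes Rela and Nfkb1 differed by -0.13 and -0.01 and were not called. Of the interferon pathway genes, 3 of 17 were called lower in mLN in each housing group (median -0.56 and -0.42), among them Irf8 (-3.54, SE 0.21) and the interferon gamma receptor gene Ifngr1 (-1.29, SE 0.14). This list was mixed: by limma at an unadjusted p below 0.05, 10 of 17 were lower and 3 of 17 higher in mLN in each housing group. Over all genes, 16.3% and 22.4% were lower and 26.2% and 21.2% higher in SPF and GF mice, and voom called 3 of the list lower and 0 higher in each. Socs1, a feedback inhibitor of cytokine signaling, was the 1 interferon list gene called between SPF and GF mice, higher in SPF in mLN (1.10, SE 0.19, adjusted p = 0.00327) and in pLN (1.24, SE 0.19, adjusted p = 0.00106), and in mLN it fell short of 2-fold without mLN GF replicate 1 (0.96).

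Of the genes that control chemokine mRNA decay, 0 of 10 were called between the sites in either housing group by limma with the 2-fold minimum. At an unadjusted p below 0.05, 4 of 10 were lower in mLN in SPF and 4 of 10 in GF mice, beside 16.3% and 22.4% of all genes, and voom on the recovered reads called 1 lower in SPF and 0 in GF mice. Zfp36, which encodes the decay factor tristetraprolin, ranged from 835 to 1109 RPKM in the 3 SPF mLN libraries and from 1534 to 1845 RPKM in the 3 SPF pLN libraries (log2 difference -0.74, SE 0.14, adjusted p = 0.000462), under 2-fold.

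**Figure D5:**
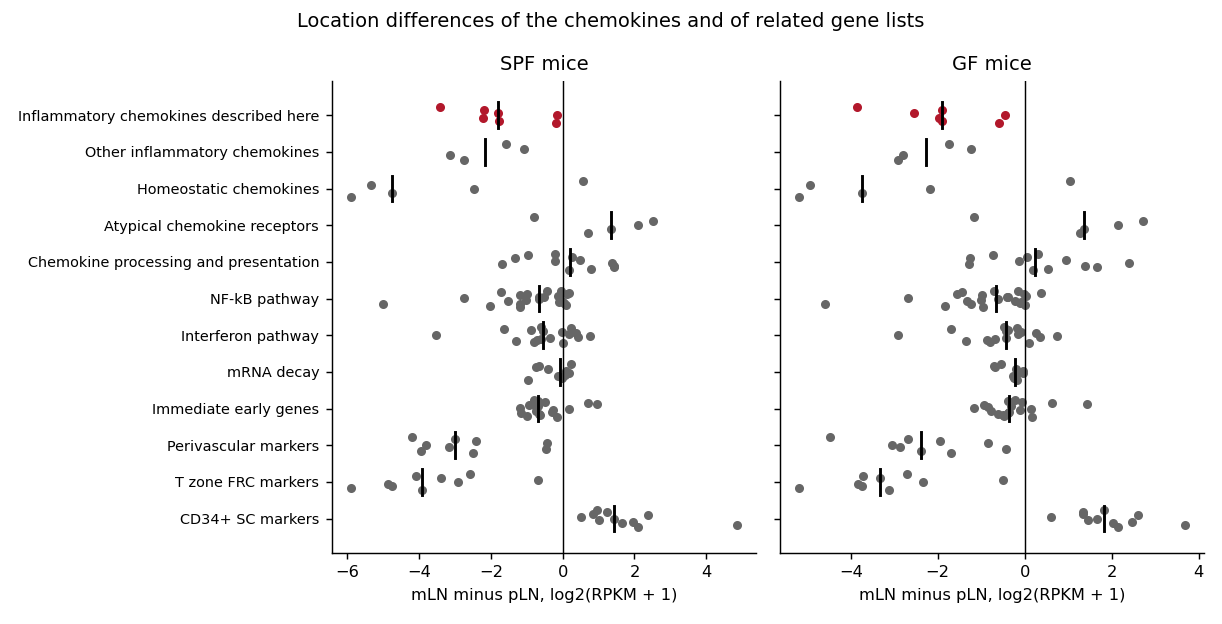
Log2 differences between mLN and pLN on log2(RPKM + 1) for the tested genes of each list, in SPF (left) and GF mice (right). Points are genes and vertical lines list medians. The inflammatory chemokines (red) have medians of -1.79 and -1.91, between the homeostatic chemokines (-4.75 and -3.74) and the NF-kB list (-0.67 and -0.66).

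Several markers of SC subsets and of other cells moved along with location. These lists share genes with those above: Ccl19 and Ccl21a are also T zone FRC markers, and Ackr3 and Dpp4 are also CD34+ SC markers. All 9 listed T zone FRC markers had a row, and 8 of 9 were called lower in mLN in both housing groups. Their summed level ranged from 312 to 583 RPKM in SPF mLN and 729 to 1190 RPKM in GF mLN, against 8699 to 9972 and 10993 to 14811 RPKM in SPF and GF pLN. Of the CD34+ SC markers 8 of 11 in SPF and 10 of 11 in GF mice were called higher in mLN, with sums of 5340 to 6654 RPKM in mLN against 1378 to 3034 RPKM in pLN. Aldh1a2 on this list passed the filter only through the mLN libraries (at most 0.375 RPKM in pLN). Of the perivascular markers 7 of 9 were called lower in mLN, with sums of 30.5 to 114 RPKM in mLN against 456 to 616 RPKM in pLN.

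Of the 12 endothelial genes, 3 were tested, and the summed level of the list was 62.6 to 89.1 RPKM in mLN against 34.8 to 51.3 RPKM in pLN. Tek, an angiopoietin receptor gene, was called higher in mLN, with means of 76.5 and 22 RPKM in SPF mLN and pLN (1.75, SE 0.18) and a difference of 1.91 in GF mice. Madcam1, an addressin gene, was called lower, with means of 3.57 and 24.5 RPKM (-2.56, SE 0.24) and a difference of -1.83 in GF mice. Of 8 mesothelial and epithelial genes listed, 1 had a row: Wt1, a mesothelial transcription factor gene, was called higher in mLN, with means of 7.31 and 0.823 RPKM in SPF mice (2.19, SE 0.13) and a difference of 2.43 in GF mice.

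Of 18 leukocyte genes listed, 5 had a row, with sums of 11.2 to 14.4 RPKM in mLN and 40.0 to 51.9 RPKM in pLN. Nearly all of this difference was Cd14, at means of 7.98 and 43.2 RPKM in SPF mLN and pLN, while Lyz2, Laptm5 and Coro1a stayed between 0.687 and 2.81 RPKM in all group means. Of the immediate early genes, which respond to tissue handling among other stimuli, 3 of 18 were called lower in mLN in SPF mice (Ier3 at -1.19, Egr2 at -1.16 and Btg2 at -1.0), and 1 of 18 lower and 1 higher in GF mice. Over the 3 SPF pLN libraries Egr2 ranged from 32.3 to 67.5 RPKM and Btg2 from 281 to 521 RPKM. The calls of Egr2 and Btg2 thus rest in part on the highest library. At an unadjusted p below 0.05, 13 of 18 were lower in mLN in SPF and 10 of 18 in GF mice, beside 16.3% and 22.4% of all genes, and 2 of 18 were higher in each. Their summed level was 7475 to 8520 RPKM in mLN and 9095 to 11849 RPKM in pLN. The part of subset composition, of other cells and of handling in the chemokine differences was not tested.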

How the data were processed

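The authors sorted the cells by FACS, amplified cDNA from total RNA with SMART-Seq v4 and prepared unstranded Nextera XT libraries, which were read as 50 bp single reads on a HiSeq2500. Per the sources, TopHat2 1.2.0 placed the reads on GRCm38 (mm10), and HTSeq 0.12.4 counted them for each gene. The deposited table gives RPKM per library, computed by the authors, for 10253 genes. For this choice of genes, no rule was given in the sources used here. Its columns of the authors' fold changes and adjusted p-values for the 4 pairwise comparisons were not used, and the group columns written SFP were read as SPF, as in the sample titles.

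Values were transformed to log2(RPKM + 1), and limma 3.58.1 (R 4.3.3) was run on the 9764 genes with at least 1 RPKM in at least 3 libraries, with 4 group means over 12 libraries (8 residual degrees of freedom), and p-values were adjusted by the Benjamini-Hochberg method over all of them. The script was tested on simulated data. Ccl20 was tested by an exact permutation test. Low RPKM values are whole multiples of what 1 read is worth, which gave whole reads for 10247 of 10253 genes (99.9%, within 0.01 of a whole number) and 4.23 to 12.7 M reads per library, used for depth and for voom, which called 545 genes higher and 768 lower in mLN in SPF mice. Intervals from reads cover counting error only. Same-numbered SPF libraries of mLN and pLN deviated together (r of 0.26, 0.46 and 0.18 after removal of group means), so that a fit with the replicate number as a block was run. Among unlike numbers, mLN replicate 1 with pLN replicate 3 gave 0.30, and mLN replicate 3 with pLN replicate 1 gave 0.21. Pairs of replicate 2 with another number gave -0.38 to -0.28. A pairing by number was thus not shown for SPF replicates 1 and 3. In GF mice the same-numbered values were 0.23, 0.22 and 0.08, each above those of unlike numbers, which ran from -0.24 to 0.03. The main fit held no pairing, and whether GF libraries were paired by number was not tested.

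The 8 members and the gene lists were chosen with earlier results of these data known. In the text all members are given, and from each further list up to 4 genes, those called with the largest change or a defining gene. Further genes are named where a limit of the filter or the absence of a call is described. Some genes that these rules name are not reported here. Promoter sequences and motifs were taken from the RefSeq table for GRCm38.p6 by symbol. Alternatives covered the pseudocount, filters, scaling, the limma settings, the block and each library left out.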

Additional observations from a re-analysis of the deposited data

How the results depend on the processing

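The number of members called was recomputed under 2 other pseudocounts, no filter and a stricter filter, median-of-ratios and quantile scaling, other limma settings, voom, the replicate block and the omission of each library in turn. The 5 members lower in mLN remained called in SPF and in GF mice under each of these, except that at an adjusted p alone 6 members were lower in GF mice, beside 18.4% of all genes. With the replicate block the counts were again 5 lower in SPF and 5 lower in GF mice, and a block on the SPF libraries alone, added after seeing the data, gave 5. The count of members higher in SPF than GF mLN moved from 0 to 1 (Cxcl10) with voom on recovered reads and, among the fits that left out a library, ranged from 0 to 1. The Ccl20 difference of -0.558 RPKM passed the threshold as given but not under the replicate block, with swaps within same-numbered pairs (-0.558 RPKM, exact p = 0.0625); with each library left out in turn it ranged from -0.637 to -0.494 RPKM (exact p from 0.005 to 0.015). Of the 7 members fitted with limma, none lost a call in these alternatives. Some log2 differences that were not called changed sign. With the second library of both SPF groups left out together, Ccl2 between SPF and GF pLN was at -0.12, Cxcl16 between SPF and GF pLN at -0.023, and the Ccl7 interaction at 0.13. With each library left out in turn, the SPF minus GF difference in pLN ranged from -0.12 to 0.23 for Ccl2, from -0.22 to 0.25 for Cxcl1, from -0.071 to 0.34 for Cxcl10 and from -0.093 to 0.12 for Cxcl16, that in mLN from -0.27 to 0.026 for Cxcl9, and the interaction from -0.017 to 0.33 for Ccl2 and from -0.40 to 0.066 for Ccl7. The cause was not tested. Depth limits Ccl20, with at most 22 reads in a library.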
